A study of Mus musculus with 8 samples.

Results

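The comparison concerns B cell depletion under blockade of CTLA-4 in lymph nodes that drain the brain. One single-cell expression library came from C57BL/6 mice given anti-CD20 and anti-CTLA-4 (the depleted library), and 1 library came from C57BL/6 mice given anti-CTLA-4 with their B cells left intact (the intact library). All of these mice carried GL261, a mouse glioma line, placed in the brain. Deep cervical lymph nodes were taken at day 20, live immune cells were sorted, and libraries were made with the 10x Chromium 5′ V2 chemistry. A second pair of libraries is set beside the results: anti-CD20 with isotype IgG (depleted) and isotype IgG alone (intact), in mice with the same tumour. The number of mice behind a library is not given in the sources used here. With 1 library a side there is no replicate spread and no test, so each value below compares libraries, and its interval (95%) covers the error of counting alone.

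A UMI (unique molecular identifier) marks 1 captured RNA molecule. Barcodes entered the comparison when no more than 10% of their UMIs were mitochondrial and 500 genes or more were detected. The rule kept 9019 of 9107 barcodes of the depleted library and 11703 of 11791 of the intact library, together 20722 of the 49399 barcodes of the 5 expression libraries. Cells without a UMI of Cd79a, which encodes a signalling chain of the B cell receptor, were taken as lying outside the B lineage. There were 8866 such cells in the depleted library and 5397 in the intact library, while 153 cells (1.70%) and 6306 cells (53.9%) held Cd79a.

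B cells take up, process and present antigen on MHC class II molecules, and in germinal centres they exchange signals with T follicular helper (Tfh) cells through receptors such as CXCR5, ICOS and CD40 ligand. Anti-CD20 removes cells that carry CD20, the product of Ms4a1. CTLA-4 is an inhibitory receptor of activated and regulatory T cells. In droplet libraries some RNA from broken cells floats free and is counted in every droplet, so a library with many B cells places B cell RNA in its T cells, and a library without them does not. Levels in cells outside the B lineage can therefore differ through this free RNA as well as through the cells themselves, and both parts are given below.

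The antibody target served as the check of the labels. Ms4a1 (chr19:11249679-11266149, GRCm38) stood at 10.1 CPM (counts per 1000000 UMIs) in the whole depleted library, with an exact Poisson interval of 9.34 to 10.9, and at 291 CPM (287 to 295) in the intact library. Ctla4 (chr1:60909025-60915832), whose product was blocked in both groups, stood at 142 CPM and 87.5 CPM over all cells of the depleted and the intact library, which differ in their share of T cells. The libraries held 62150813 and 63497466 UMIs. Cells without Cd79a had a median of 6063 UMIs in the depleted library and 5152 in the intact library, with median mitochondrial shares of 2.07% and 1.98%. The intact isotype library stood apart from the other 3, with a median mitochondrial share of 0.969% and 270 cells in an interferon cluster that held 12 to 15 cells in the others, so the isotype pair carries its own library difference. The 2 anti-CTLA-4 libraries shared 124 barcodes, 1.36% of the smaller library.

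The Cd79a rule was checked against the B cell receptor library of the intact group. A heavy chain was recorded in 2 of the 5338 cells without Cd79a that lay outside a small cluster led by the B lineage genes Ebf1, Bank1 and Pax5. Inside this Pax5 cluster it was recorded in 22 of 59 cells (37.3%, exact binomial interval 25.04 to 50.9%), and among all cells with at least 5 Cd79a UMIs in 89.5%. The Pax5 cluster held 2 cells of the depleted library and 59 of the intact library without Cd79a, and values are given without it unless stated. The rule set aside 0.628% of the depleted and 6.56% of the intact cells outside this cluster because they held Cd79a. Among these set-aside intact cells a heavy chain was recorded in 10 of 102 naive CD4-like, 13 of 117 naive CD8-like, 11 of 37 Treg-like, 25 of 36 proliferating T-like, 8 of 11 NK-like and 5 of 12 migratory DC-like cells.

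Free B cell RNA was lower in every large class of T cells of the depleted library. It was measured with 17 B lineage genes as the median, over genes, of their level as a percentage of the level in B cells of the intact library (5673 cells with at least 5 Cd79a UMIs). The median was 0.041% in the depleted and 0.320% in the intact library for naive CD4-like cells, and 0.056% and 0.277% for naive CD8-like cells. For Treg-like cells it was 0.197% and 0.429%, and for all cells outside the Pax5 cluster 0.217% and 0.555%. At least 1 UMI of the 14 anchors left after Ighm, Cd79b and Ralgps2 are set aside was found in 59 of 3058 depleted naive CD4-like cells (1.93%) and in 204 of 1763 intact ones (11.6%). Only 2 of these 204 intact cells held 3 or more such UMIs, so the signal was thin and spread over many cells.

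The B lineage genes did not all behave alike. Ms4a1 had 3 UMIs (0.0496 CPM) outside the Pax5 cluster of the depleted library and 46 UMIs (1.48 CPM) in the intact library. The light chain gene Iglc2 had 30 and 233 UMIs. Ighm, the constant region of IgM, stood at 185 CPM in the depleted library against 190 CPM in the intact library, a ratio of 0.978 (0.947 to 1.01), and 24.6% and 25.2% of its B cell level. Ralgps2, a guanine nucleotide exchange factor, was at 43.7 CPM in both (ratio 1.00, 0.938 to 1.07). Both genes stood at like levels with and without B cells in the library. Ighm was spread over T cell classes, with 180 and 189 CPM in naive CD4-like and 196 and 196 CPM in naive CD8-like cells of the depleted and intact library.

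Cd79b, which encodes the partner chain of Cd79a, divided by class. It stood at 19.1 CPM in depleted and 20.0 CPM in intact naive CD8-like cells, a ratio of 0.954, and at 0.944 CPM and 3.47 CPM in naive CD4-like cells, a ratio of 0.272. Plasmacytoid dendritic (pDC-like) cells held 191 of the 193 Iglc3 UMIs outside the Pax5 cluster of the depleted library, at 816 CPM, and 250 of 319 in the intact library, at 731 CPM. Fcrla, which encodes an Fc receptor-like protein of B cells, was at 162 and 172 CPM in these pDC-like cells. Ms4a1 and Pax5 together gave 1 UMI in depleted pDC-like cells and 0 in intact ones. Free RNA was therefore read from the median over the genes rather than from any single one.

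**Figure D1:**
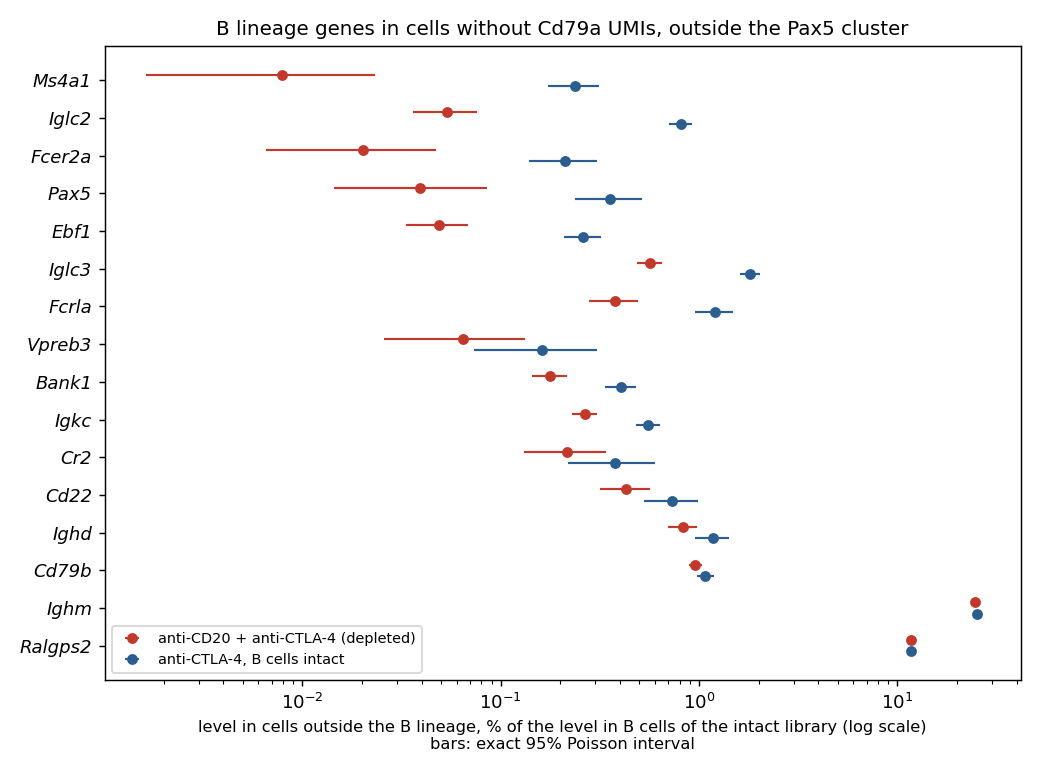
Level of each of 16 B lineage genes in cells outside the Pax5 cluster without Cd79a UMIs, as a percentage of its level in B cells of the intact library (log axis), in the depleted and the intact library. The ratio of depleted to intact runs from 0.034 (Ms4a1) through 0.48 (Igkc) to 0.89 (Cd79b, 0.79 to 1.01). Ighm (24.6% and 25.2%) and Ralgps2 (11.8% in both) coincide.

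MHC class II genes showed the largest part of free RNA. Cd74, the invariant chain that guides MHC class II molecules, stood at 10.3 CPM (8.79 to 11.9) in depleted naive CD4-like cells and 74.5 CPM (68.7 to 80.6) in intact ones. The level that free B cell RNA alone would give was 9.07 and 71.2 CPM, which is 95.6% of the intact value. In naive CD8-like cells Cd74 stood at 6.22 and 59.7 CPM, where free RNA would give 12.4 and 61.8 CPM. H2-Aa, a chain of the MHC class II molecule I-A, was at 0.944 and 18.8 CPM in naive CD4-like cells, with free RNA giving 2.61 and 20.5 CPM. Memory CD8-like cells had 3.36 and 37.5 CPM of Cd74, below the 12.4 and 74.0 CPM computed for free RNA. In these 3 classes Cd74 and H2-Aa of the intact library lay at or below the free RNA level, or above it by a few percent for Cd74 in naive CD4-like cells, and no level of the cells themselves was separable.

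Treg-like cells and the dendritic cells differed from this. Treg-like cells kept 118 CPM (109 to 128) of Cd74 in the depleted library and 193 CPM (177 to 210) in the intact library, against 43.9 and 95.6 CPM of free RNA. After subtraction the ratio of depleted to intact was 0.76, against 0.61 before. The share subtracted was loosely set, with quartiles over the 17 genes of 0 to 0.386% (depleted) and 0.176 to 1.05% (intact). H2-Aa in the same cells was at 1.68 and 19.2 CPM, below the 12.7 and 27.6 CPM computed for free RNA. The computed level was thus too high for H2-Aa, most of all in the depleted library. It may be too high for Cd74 as well, so the ratio of 0.76 is uncertain. Migratory dendritic cell (DC)-like cells held 14080 CPM of Cd74 in the depleted and 18628 CPM in the intact library, where free B cell RNA would give 38.7 and 112 CPM. Of all Cd74 UMIs in cells without Cd79a, 80.9% and 69.3% lay in migratory DC-like cells and 11.8% and 15.6% in pDC-like cells.

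**Figure D2:**
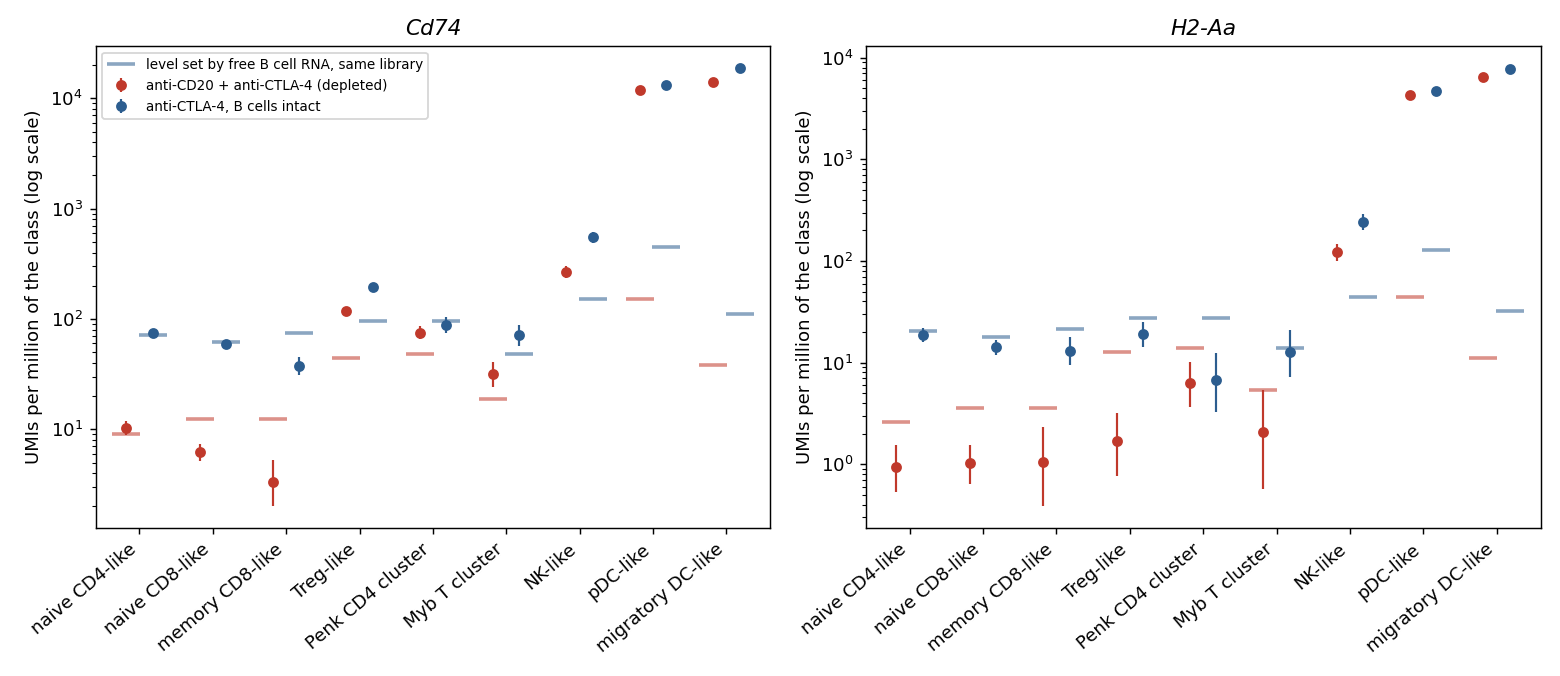
Cd74 and H2-Aa levels (CPM, log axis) by class in the depleted and the intact library, with the level that free B cell RNA would give in each. Naive CD4-like cells sit at 10.3 and 74.5 CPM of Cd74, close to the free RNA level of 9.07 and 71.2 CPM, while migratory DC-like cells lie far above it.

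Few genes were shaped by free B cell RNA to this degree. Among 9328 genes with at least 100 UMIs in naive CD4-like cells, free RNA made up over 25% of the intact level for 3 genes, Cd74, H2-Aa and H2-Eb1, and all 3 were lower in the depleted library. In naive CD8-like cells there were 4 such genes, the same 3 and Slpi, a protease inhibitor that was higher in the depleted library (4.83 and 2.76 CPM). Before subtraction 27 genes (0.289%) were past 1.5-fold lower in naive CD4-like cells and 3 of these no longer were afterwards. Among these 3 were H2-Aa and H2-Eb1, for which subtraction left no ratio. In the other classes named here 1 to 7 genes lost that place. Gene ratios from here on are depleted over intact after subtraction, while levels in CPM are as counted. Called genes are those past 1.5-fold, and a summed level does not separate fewer positive cells from less RNA per cell.

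Cells without Cd79a fell into similar proportions in the libraries. Naive CD4-like cells made up 34.5% of the depleted and 32.7% of the intact cells (ratio 1.06, log interval 1.01 to 1.11), and naive CD8-like cells 35.2% and 32.3% (1.09, 1.04 to 1.14). Treg-like cells, which carry Foxp3, made up 9.28% (8.69 to 9.91%) and 10.4% (9.57 to 11.3%), a ratio of 0.895 (0.808 to 0.991) that was 1.03 when classes were cut by marker UMIs in place of clusters. Memory CD8-like cells made up 6.60% and 7.21%, natural killer (NK)-like cells 1.23% and 1.65%, and migratory DC-like cells 1.57% and 2.04%. The migratory DC-like ratio of 0.769 (0.600 to 0.986) was 1.14 once the highest doublet scores were removed, which took 17 of 139 depleted and 43 of 110 intact cells.

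The widest gap between named classes lay in pDC-like cells, which release type I interferon. They numbered 22 (0.248%, exact binomial interval 0.156 to 0.375%) in the depleted library and 34 (0.630%, 0.437 to 0.879%) in the intact library. The ratio of shares was 0.394 (0.231 to 0.673), and in the isotype pair it was 0.494, from 28 and 27 cells. NK-like cells had ratios of 0.746 (0.565 to 0.984) here and 0.577 in the isotype pair.

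**Figure D3:**
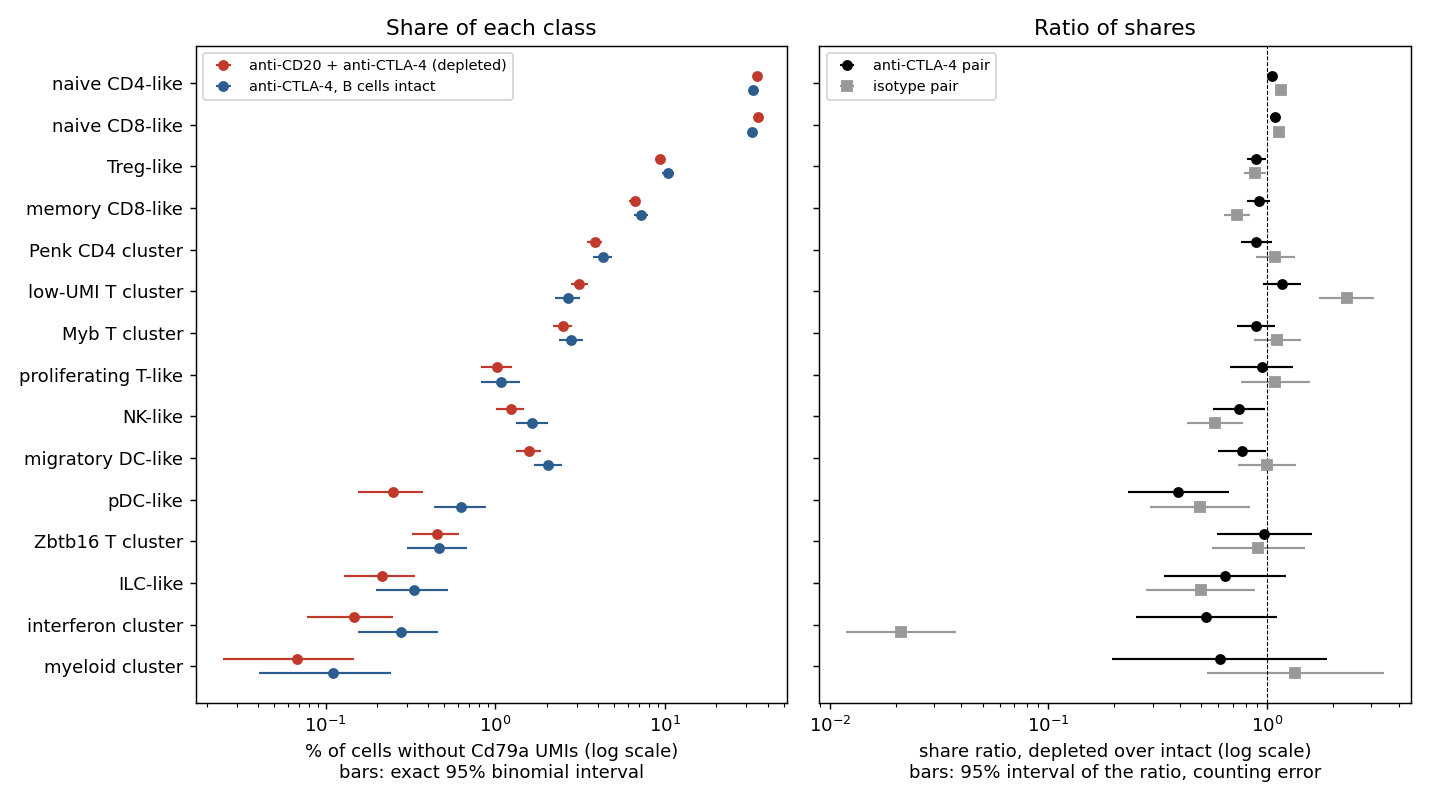
Share of each class among cells without Cd79a UMIs in the depleted and the intact library (log axis, exact binomial intervals), and the ratio of the shares beside that of the isotype pair. Naive CD4-like and naive CD8-like cells lie just above a ratio of 1, and pDC-like cells lie at 0.394 and 0.494.

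Naive T cells were close to each other in the libraries. In naive CD4-like cells 106 of 9326 genes were past 1.5-fold higher and 24 lower (1.39% either way), and in naive CD8-like cells 121 of 9636 were higher and 38 lower (1.65%). Each class joined 3 clusters, numbered 2, 3 and 4 for CD4 and 0, 1 and 6 for CD8, whose mix differed. Cluster 2 made up 44.8% of depleted and 27.2% of intact naive CD4-like cells, and cluster 0 made up 49.8% and 32.6% of naive CD8-like cells, so values within a class also carry this shift.

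Ccr7, the receptor that keeps naive T cells in lymph nodes, stood at 452 CPM in depleted and 581 CPM in intact naive CD4-like cells (ratio 0.78, 0.75 to 0.81), and at 435 and 581 CPM in naive CD8-like cells (0.75, 0.73 to 0.78). Il7r, the receptor for the survival cytokine IL-7, was at 277 and 358 CPM (0.77) and at 258 and 332 CPM (0.78). In the isotype pair the Ccr7 ratios were 0.93 and 0.99. Igfbp4, which binds insulin-like growth factors and is one of the leading genes of clusters 2 and 3, was higher in both classes, at 1210 and 839 CPM (1.44, 1.40 to 1.48) and at 513 and 372 CPM (1.38, 1.33 to 1.43). The isotype ratios of Igfbp4 lay on the other side of 1, at 0.85 and 0.93. None of these passed 1.5-fold, and Tcf7 (1.05) and Lef1 (1.03) were near 1 in naive CD4-like cells.

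Among naive CD8-like cells Cd44, the hyaluronan receptor that marks antigen-experienced T cells, stood at 60.3 CPM in the depleted library and 34.2 CPM in the intact library (ratio 1.77, 1.57 to 2.00, isotype pair 1.32). Kcnip1, a potassium channel-interacting protein, was at 11.3 and 5.33 CPM (2.12). Myb, a transcription factor of progenitor and memory cells, was at 17.97 and 28.4 CPM (0.63, 0.54 to 0.74), and Cd83, an activation marker, at 3.58 and 7.70 CPM (0.54). Lower genes of naive CD4-like cells included Cdk5rap1, which modifies transfer RNA, at 8.67 and 17.9 CPM (0.48, isotype pair 0.65), and Tubb2a, a tubulin, at 26.7 and 45.2 CPM (0.59). Hspa8, a constitutive chaperone, was at 1569 and 2130 CPM (0.74, isotype pair 0.76).

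Interferon-response genes leaned lower in naive T cells by small amounts. Of 25 measured members 21 were below 1 in naive CD4-like cells, with a median log2 ratio of -0.22 beside 0.01 over all genes with at least 20 UMIs. One member passed 1.5-fold lower, where 1.79% of all genes did. Irf7, which drives interferon transcription, was at 52.7 and 68.6 CPM (0.77), and Ifi27l2a at 315 and 358 CPM (0.88). In naive CD8-like cells the median was -0.13, again with 21 of 25 members below 1 and 0 past 1.5-fold lower, where 1.93% of all genes were. In the isotype pair the list stood at 0.02 and -0.09. That pair had 12 depleted and 270 intact cells in the interferon cluster, outside these classes, and the effect on its medians was not tested. Lists with 10 or more measured members had medians of -0.22 to 0.23 in naive CD4-like and -0.13 to 0.04 in naive CD8-like cells. The highest of these, 0.23, belonged to the Treg programme in naive CD4-like cells, with 4 of 14 members past 1.5-fold higher, where 5.3% of all genes were. Nt5e, the ecto-nucleotidase CD73, was at 11.1 and 6.34 CPM (1.76, 1.29 to 2.43) and Tnfrsf9, the co-stimulatory receptor 4-1BB, at 6.25 and 4.06 CPM (1.54). Receptors and ligands of T-B contact included 0 of 17 past 1.5-fold in naive CD4-like and 0 of 18 in naive CD8-like cells.

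Genes of the Treg programme, several of which define the cluster, lay close together in the libraries. Of 18 measured Treg genes none passed 1.5-fold in either direction, where 9.01% of all genes with at least 20 UMIs did, and the median log2 ratio was -0.11. Foxp3, the lineage factor, stood at 311 CPM in the depleted and 336 CPM in the intact library (0.93, 0.86 to 1.00). Ctla4 was at 878 and 906 CPM (0.97) and Ikzf2, which encodes Helios, at 876 and 862 CPM (1.02). Il2ra, the high-affinity chain of the IL-2 receptor, was at 236 and 261 CPM (0.90), and the suppressive cytokine Il10 at 18.1 and 18.4 CPM (0.98). The 18 T-B contact genes of Treg-like cells included none past 1.5-fold, with a median of -0.04. For the interferon response 22 of 24 members lay below 1 and the median was -0.24, with 2 past 1.5-fold lower and 1 higher, where 4.08% of all genes were lower. The lower ones were Ifit1, which binds viral RNA (6.15 and 13.0 CPM, 0.47), and Rtp4 (23.7 and 38.7 CPM, 0.61). The isotype median was 0.05, again with the interferon cluster counted apart.

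Over all genes of Treg-like cells 78 of 7565 were past 1.5-fold higher and 55 lower (1.76% either way). With median-of-ratios scaling the split was 99 higher and 42 lower, and with every cell scaled to the same total 103 and 128. Cxcl10, a chemokine induced by interferon, stood at 29.2 CPM in depleted and 92.5 CPM in intact cells (0.32, 0.26 to 0.39), whereas the isotype ratio was 1.65. Thinned to 3000 UMIs per cell, 5.37% of depleted and 9.90% of intact Treg-like cells held Cxcl10, and 8.99% and 11.96% did without thinning. Hspb1, a small heat shock protein, was at 15.1 and 41.9 CPM (0.36, isotype pair 0.66). Nrn1, which encodes neuritin and is expressed by regulatory T cells, was at 24.4 and 11.2 CPM (2.18), against 0.54 in the isotype pair. Igfbp4 was at 118 and 67.9 CPM (1.73, isotype pair 1.69).

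The cell cycle list of Treg-like cells had a median log2 ratio of 0.34, with 7 of 20 members past 1.5-fold higher, where 4.93% of all genes were. The median was 0.06 with cells thinned to 3000 UMIs and 0.07 over members with at least 100 UMIs. Mki67, a marker of cycling cells, was at 18.6 and 6.51 CPM (2.99, 1.80 to 5.25), and was found in 44 of 823 depleted and 13 of 560 intact cells. Thinned, 2.82% (1.73 to 4.33%) of depleted and 1.21% (0.39 to 2.80%) of intact cells held Mki67, with overlapping intervals. Stmn1, a tubulin-binding protein of dividing cells, was at 38.7 and 23.9 CPM (1.65), while Pcna was at 81.8 and 66.5 CPM (1.23). At least 5 UMIs of 5 proliferation markers were held by 17 depleted and 5 intact cells, or by 3 of 708 and 0 of 414 thinned cells.

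Memory CD8-like cells, which carry Ccl5 and Nkg7, showed lower levels of several activation genes. Among 15 measured activation and checkpoint genes 5 were past 1.5-fold lower and none higher, where 3.43% of all genes with at least 20 UMIs were lower, and the median log2 ratio was -0.41. Tigit, an inhibitory receptor, stood at 33.6 CPM in depleted and 58.5 CPM in intact cells (0.58, 0.47 to 0.71). Tnfrsf9 was at 15.6 and 29.4 CPM (0.53, 0.39 to 0.72), and Pdcd1, which encodes PD-1, at 6.55 and 12.5 CPM (0.52). Lag3 was at 1.95 and 5.00 CPM (0.39, 0.16 to 0.89). Thinned, 6.55% of depleted and 13.5% of intact cells held Tigit, and 22.9% and 27.8% did without thinning. For Tnfrsf9 the thinned shares were 4.66% (3.09 to 6.70%) and 6.22% (4.02 to 9.11%), with overlapping intervals, and 9.06% and 14.7% without thinning. Pdcd1 was held by 5 of 580 and 8 of 386 thinned cells, and by 2.91% and 3.34% without thinning. Cd44 lay the other way, at 137 and 109 CPM (1.26). In the isotype pair the list's median was 0.02. T-B contact genes included 4 of 18 past 1.5-fold lower and 1 higher, among them Tnfsf14, the ligand LIGHT, at 14.7 and 23.1 CPM (0.64) and Slamf1 at 8.32 and 4.07 CPM (2.09).

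Cytotoxic genes of memory CD8-like cells had a median log2 ratio of -0.20. Of 20 members 3 were past 1.5-fold lower and 1 higher, where 3.43% of all genes were lower and 5.54% higher. The granzymes Gzmk (2.30 and 11.6 CPM, 0.20) and Gzmb (4.25 and 9.07 CPM, 0.47) and the death ligand Fasl (23.9 and 39.7 CPM, 0.60) were the lower ones, and Gzma (15.9 and 7.19 CPM, 2.22) the higher one. The most abundant members differed less, with Ccl5, a leading gene of the cluster, at 3217 and 3685 CPM (0.87) and Nkg7 at 989 and 982 CPM (1.01). The early response gene Zfp36, which destabilises cytokine messages, was at 286 and 424 CPM (0.68, isotype pair 0.56). Over all genes 97 of 7264 were past 1.5-fold higher and 68 lower (2.27%), or 122 and 54 with median-of-ratios scaling.

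A small cluster of CD4 cells led by Il2, Penk, Tnfsf11, Tnfsf8 and Tox2, held 340 depleted and 231 intact cells (called the Penk CD4 cluster, since the markers left it unnamed). Over all genes 97 of 5602 were past 1.5-fold higher and 137 lower (4.18% either way), or 137 and 94 with median-of-ratios scaling. Genes of the Tfh programme had a median log2 ratio of -0.39 over 17 measured members, or -0.18 with cells thinned to 3000 UMIs. Of the 17, 15 lay below 1, 4 were past 1.5-fold lower and 0 higher, where 6.59% of all genes with at least 20 UMIs were lower. The isotype pair had a median of -0.41 over the same list.

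Cxcr5, which brings helper T cells into the B cell follicle, stood at 28.2 CPM in the depleted library and 50.5 CPM in the intact library (0.56, 0.40 to 0.78, isotype pair 0.56). Pdcd1 was at 75.2 and 139 CPM (0.54, 0.44 to 0.66), against 0.43 in the isotype pair. Tox2, a Tfh transcription factor and one of the genes that led the cluster, was at 67.8 and 110 CPM (0.62). Sostdc1, a secreted antagonist made by Tfh cells, was at 25.9 and 73.7 CPM (0.35), but from 8 and 7 cells. Maf, a transcription factor for IL-21, was at 106 and 147 CPM (0.72), and Cd40lg, the ligand that licenses B cells, at 207 and 271 CPM (0.76). Bcl6, the lineage factor, was at 64.5 and 79.8 CPM (0.81, 0.64 to 1.03).

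Of the Tfh genes nearest a ratio of 1, Icos stood at 379 and 402 CPM (0.94), Slamf6 at 320 and 314 CPM (1.02) and Il21 at 18.9 and 18.4 CPM (1.03, 0.63 to 1.70). Of 18 T-B contact genes 0 passed 1.5-fold in this cluster, where 6.51% of all genes were higher and 6.59% lower, and their median was -0.09. Of cells thinned to 3000 UMIs, 15 of 323 depleted (4.64%, exact binomial interval 2.62 to 7.54%) and 23 of 202 intact (11.4%, 7.36 to 16.6%) held at least 3 of 7 Tfh markers. The shares without thinning were 8.53% and 17.3%. In the isotype pair the shares were 2.90% and 8.55% thinned, and 13.5% and 14.3% without thinning. Under anti-CTLA-4 at least 2 of the markers were held by 15.5% (11.7 to 19.9%) of depleted and 21.3% (15.9 to 27.6%) of intact thinned cells, and by 31.2% and 34.6% without thinning, with overlapping intervals in both. Naive CD4-like cells, which should lack these genes, gave 0 of 2925 and 0 of 1592 thinned cells, where 3 counts would be 0.103% and 0.188% and the exact binomial upper bounds are 0.126% and 0.231%.

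**Figure D4:**
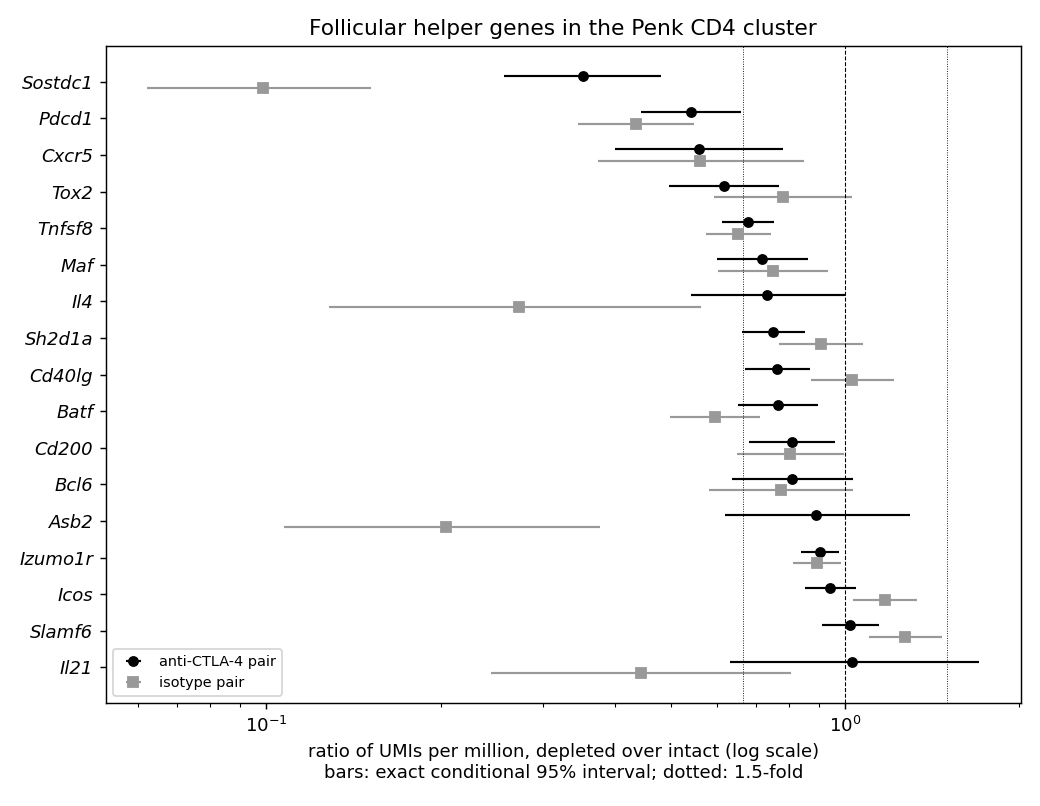
Ratio of depleted to intact level (log axis, counting intervals) for the measured Tfh genes in the Penk CD4 cluster, under anti-CTLA-4 and in the isotype pair. Cxcr5 lies at 0.56 in both pairs and Pdcd1 at 0.54 and 0.43, while Icos, Slamf6 and Il21 lie near 1 under anti-CTLA-4.

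Of 15 activation and checkpoint genes in the Penk CD4 cluster 4 were past 1.5-fold lower and 0 higher, with a median log2 ratio of -0.16, against -0.01 in the isotype pair. Tigit was at 68.9 CPM in depleted and 134 CPM in intact cells (0.52, 0.42 to 0.63, isotype pair 0.28), and was held by 9.91% of depleted and 25.2% of intact thinned cells, or 17.1% and 30.7% without thinning. The naive CD4-like shares for Tigit were 0.79% and 0.88%. Tnfrsf9 was at 53.7 and 111 CPM (0.48, isotype pair 0.33) and Cd160, an inhibitory receptor, at 23.3 and 50.5 CPM (0.46, isotype pair 0.18). Ctla4 was near equal, at 495 and 484 CPM (1.02, 0.93 to 1.12). The quiescence list of naive T cells reached a median of 0.34, with 4 of 13 past 1.5-fold higher, where 6.51% of all genes were. Igfbp4 was at 84.1 and 43.6 CPM (1.93), S1pr1, the receptor for exit from the node, at 117 and 73.7 CPM (1.60), and Ccr7 at 648 and 422 CPM (1.54).

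Of 10 T helper cytokine genes in this cluster 4 were past 1.5-fold lower and 0 higher, with a median of -0.32, and single cells held most intact UMIs of Il2 and Il13. Il2, the T cell growth factor and a gene that led the cluster, stood at 77.8 CPM in depleted and 306 CPM in intact cells (0.25), but 378 of the 448 intact UMIs came from 1 cell. Without the cell with most UMIs in each library the Il2 ratio was 1.36, and Il2 was found in 51 of 340 and 32 of 231 cells. All 176 intact Il13 UMIs came from 1 cell. Ifng was at 67.1 and 103 CPM (0.65, 0.52 to 0.81, isotype pair 0.79).

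A cluster of T cells led by Myb, Hdac9, Itm2a and Sox4 held 221 depleted and 151 intact cells. Over all genes 68 of 4542 were past 1.5-fold higher and 139 lower (4.56%), or 103 and 100 with median-of-ratios scaling. Cytotoxic genes had a median log2 ratio of -0.64, with 8 of 14 past 1.5-fold lower and none higher, where 7.39% of all genes were lower, and the isotype median was -0.08. Ccl5 was at 31.4 and 83.0 CPM (0.38), Nkg7 at 164 and 260 CPM (0.63), and Eomes, a transcription factor of cytotoxic cells and a leading gene of the cluster, at 84.7 and 140 CPM (0.61). Hdac9, a histone deacetylase that helped to define the cluster, was at 116 and 458 CPM (0.25, 0.22 to 0.30, isotype pair 0.28). Thinned, 9.30% of depleted and 24.3% of intact cells held Hdac9 (16.3% and 27.8% without thinning), where naive CD4-like cells gave 2.80% and 2.45%. Nr4a2, a receptor-induced nuclear receptor, was at 131 and 311 CPM (0.42), against 1.16 in the isotype pair.

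NK-like cells, led by Gzma, Klra4 and Ncr1 (109 depleted and 89 intact cells), had 65 of 2407 genes past 1.5-fold higher and 87 lower (6.31%), or 97 and 55 with median-of-ratios scaling. Cytotoxic effector genes were near equal, with Gzma at 2779 and 2764 CPM (1.01), Prf1, which encodes perforin, at 214 and 246 CPM (0.87) and Klrk1, which encodes NKG2D, at 528 and 435 CPM (1.21). Ccl4 was at 380 and 625 CPM (0.61) and Il7r at 209 and 430 CPM (0.49). Tmem176b, a membrane protein of type 3 innate lymphoid cells, was at 194 and 502 CPM (0.39, isotype pair 0.49), and Il22, their cytokine, at 79.0 and 506 CPM. Cd4 was at 77.9 and 178 CPM (0.44). Il22 is a leading gene of the cluster. These markers of innate lymphoid cells moved with the ratios of NK-like cells, and their part in them was not tested. Of T cell genes, Cd3e stood at 115 CPM in depleted and 48.8 CPM in intact NK-like cells, and Cd8b1 at 62.1 and 0 CPM. Lef1 was at 168 and 113 CPM, while Cd4 lay the other way. The part of T cell RNA in the ratios of NK-like cells was not tested.

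Cell cycle genes of NK-like cells had a median log2 ratio of 1.49, with 17 of 20 past 1.5-fold higher, where 10.1% of all genes were, and the isotype median was -0.11. The median was 0.34 with cells thinned to 3000 UMIs, 0.91 with each cell scaled to the same total and 0.80 over members with at least 100 UMIs. It was 0.13 without cells holding 5 or more proliferation UMIs, a step that removes cells by the list's own markers. Mki67 was at 106 and 13.7 CPM (8.07) and Pclaf, a partner of the replication clamp, at 74.5 and 5.86 CPM (14.1, 4.63 to 70.2). At least 5 proliferation UMIs were held by 6 depleted and 4 intact cells, or by 3 of 108 and 2 of 76 thinned cells.

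Migratory DC-like cells, which carry Fscn1 and Ccl22 and bring antigen to the node, numbered 139 and 110. Over all genes 162 of 3748 were past 1.5-fold higher and 140 lower (8.06%). MHC class II genes, 4 of which lead the cluster, had a median log2 ratio of -0.38, with 1 of 10 past 1.5-fold lower, where 8.21% of all genes were. H2-Aa stood at 6531 CPM in the depleted and 7786 CPM in the intact library (0.84, 0.82 to 0.87), H2-Ab1, its partner chain, at 4072 and 5010 CPM (0.81), and H2-Eb1 at 4894 and 6256 CPM (0.78). H2-DMb2, a chain of the peptide-loading molecule H2-DM, was at 224 and 364 CPM (0.62). With the highest doublet scores removed the median was 0.32, and the ratio was 1.05 for Cd74, 1.21 for H2-Aa, 1.44 for H2-Ab1 and 1.15 for H2-Eb1. Genes of the interferon gamma and MHC class I list had a median of 0.11, with 0 of 16 past 1.5-fold either way, and H2-K1, a class I heavy chain, was at 3235 and 3136 CPM (1.03). In pDC-like cells Cd74 stood at 11969 and 13153 CPM (raw ratio 0.91, 0.87 to 0.95).

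T cell RNA was higher in migratory DC-like cells of the depleted library, and its part in their other ratios was not tested beyond the values given. Cd3e, a chain of the T cell receptor complex, stood at 94.3 CPM in depleted and 67.1 CPM in intact cells, and 27 of 139 (19.4%) and 12 of 110 (10.9%) held at least 3 UMIs of Cd3e, Cd3d and Cd3g. Across 5 T cell genes the median level was 12.2% and 5.97% of the naive T cell level. Naive T cell quiescence genes had a median log2 ratio of 0.73, with 8 of 13 past 1.5-fold higher, where 10.9% of all genes were, and 0.23 without those cells. Gimap6 (87.7 and 22.4 CPM, 4.31), Ets1 (73.8 and 24.2 CPM, 3.31) and Bach2 (148 and 62.5 CPM, 2.51), all expressed by T cells, led the higher genes. Ccr7, which guides dendritic cells to the node, was at 1185 and 1585 CPM (0.75, isotype pair 1.3), and Ccnd1, a cyclin, at 94.3 and 274 CPM (0.34, isotype pair 0.92). Cell cycle genes had a median of -1.24, with 15 of 19 past 1.5-fold lower, where 8.21% of all genes were, and -0.21 without the cells of the highest Scrublet doublet scores. At least 5 proliferation UMIs were held by 4 depleted and 5 intact cells.

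**Figure D5:**
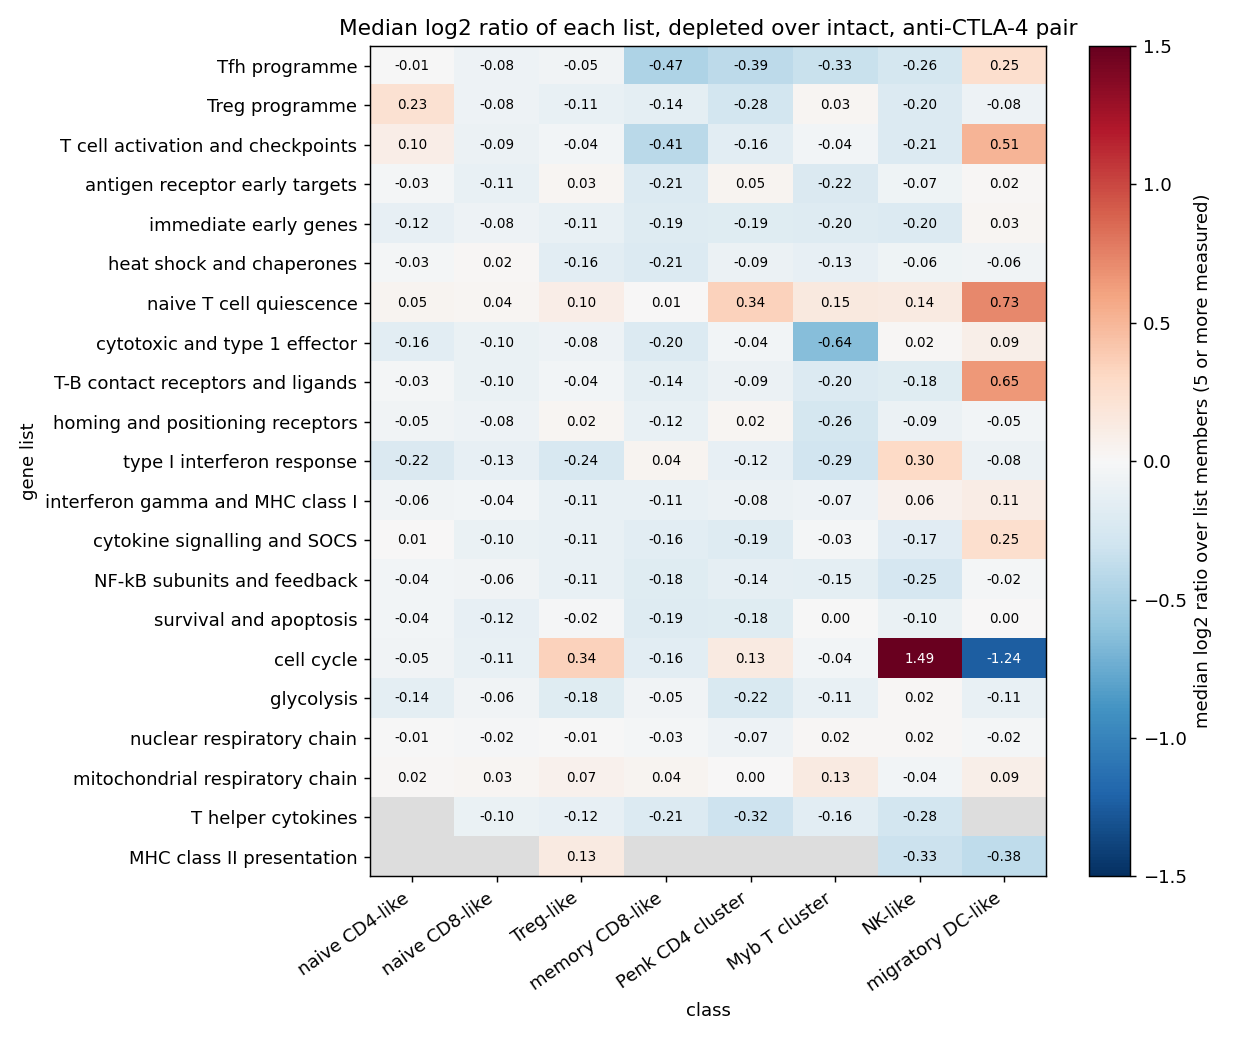
Median log2 ratio (depleted over intact, after subtraction) of each gene list in each class with at least 50 cells a library. The Tfh programme in the Penk CD4 cluster lies at -0.39, and the strongest medians, 1.49 and -1.24, belong to cell cycle genes of NK-like and migratory DC-like cells. The first was 0.34 with cells thinned to 3000 UMIs, and the second -0.21 without the highest doublet scores.

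Some genes stood higher in nearly every class at once. Cmss1, named as a homologue of a ribosomal small subunit protein, had ratios of 1.38 to 1.88 over 10 classes, all with intervals above 1, and 1.19 to 2.71 in the isotype pair. Il31ra, a cytokine receptor chain, had ratios of 1.28 to 2.46 over the same 10 classes, and was above 1 in 4 of 10 in the isotype pair. Lars2, a mitochondrial leucyl-tRNA synthetase, and Camk1d, a kinase, were above 1 in 9 of 10 classes, and Zc3h7a in 10. The ribosomal RNA-derived transcripts Gm42418 (1.14 to 2.36) and AY036118 (1.18 to 2.25) moved with them, and Malat1, a nuclear RNA, ranged from 0.93 to 1.21. These values stand beside the higher genes of each class above, and their part in them was not tested.

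The isotype pair, which shares no library with the pair described, gave lists that shared members with those above. In the Penk CD4 cluster 85 lower genes could be measured in both pairs, and 24 of them (28.2%) were also past 1.5-fold lower under isotype, as were 3.48% of all genes there. These 24 were 15.4% of the 156 genes lower under isotype. In NK-like cells it was 22 of 70 (31.4% of the lower genes here and 33.3% of those under isotype), where 3.50% of all genes were lower under isotype. In migratory DC-like cells 31 of 103 higher genes were shared (30.1%, and 13.0% of the 238 higher under isotype), where 8.22% of all genes were higher under isotype. In naive CD4-like cells 1 of 14 lower (7.14%) and 5 of 56 higher genes (8.93%) were shared, where 0.543% and 0.967% of all genes were lower and higher under isotype. These were 2.17% of the 46 lower and 6.10% of the 82 higher genes under isotype. In memory CD8-like cells 1 of 45 lower (2.22%) and 4 of 46 higher genes (8.70%) were shared, where 0.612% and 2.26% of all genes were lower and higher. These were 2.56% of the 39 lower and 2.78% of the 144 higher genes under isotype.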

How the data were processed

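The authors deposited filtered matrices of UMI counts per gene and barcode, the file headers name Cell Ranger 7.0.1, and the submitters' processing notes name bcl2fastq 2.20.0 and mm10. Values here are raw counts. Cells were clustered over the libraries with scanpy 1.11.5 and leidenalg 0.10.2 (2000 variable genes, 30 components, 15 neighbours, resolution 1), and classes were named from marker lists, with thresholds set after the clusters were seen. UMIs were summed per library and class. Free B cell RNA was set from the median share of 17 B lineage genes and subtracted as that share of the B cell profile of the intact library. The step was run on simulated data in which the cells themselves made none of the 17 genes. That check could not cover genes such as Ighm and Ralgps2, which stood at like levels with and without B cells.

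Levels carry exact Poisson intervals, shares exact binomial (Clopper-Pearson) intervals, and ratios exact conditional or log intervals (scipy 1.17.1, numpy 2.4.6, pandas 2.3.3). Genes needed 100 UMIs over both libraries, list members 20 and classes 50 cells a library. The 5 highest and 5 lowest ratios per class could be named, in the order of the interval bound closest to 1, where free RNA was at most 25% of the intact level and no cell held above 20% of the gene's UMIs, as could list members with most UMIs. Ribosomal, mitochondrial and predicted genes and antigen receptor segments were left out of that ranking, and members that were called or near equal were named after their values were seen. The members and the 24 gene lists were chosen with earlier results of these data known.

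No doublets were removed. Scrublet's automatic threshold marked 0 barcodes of the depleted and 494 of the intact library, and an alternative removed the highest scores at 0.8% per 1000 barcodes. For shares of cells, cells were thinned to 3000 UMIs and shallower ones left out. In the naive CD4-like class this kept 2925 of 3058 depleted and 1592 of 1763 intact cells. Other alternatives changed the cell filters, the B lineage rule, the scaling, the subtraction and the UMI minimum, and 3 were chosen after seeing the data: no cells with T cell RNA among dendritic cells, no cycling cells, and fewer B lineage genes to set the share. Results for 2 genes are not reported here.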

Additional observations from a re-analysis of the deposited data

Results flagged for a closer look

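In Treg-like cells Nrn1, which encodes neuritin, had a ratio of depleted to intact of 2.18 under anti-CTLA-4 and 0.538 in the isotype pair. Cxcl10, an interferon-induced chemokine, had a ratio of 0.316 under anti-CTLA-4 and 1.65 in the isotype pair, where 270 intact cells lay in the separate interferon cluster. Nrn1 and Cxcl10 stood out because the depleted library lay on opposite sides of the intact library in the 2 pairs. With 1 library a group the difference between the pairs was not tested.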

How the results depend on the processing

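No paired analysis was possible because each group is 1 library and no test was run. Of 3258 gene ratios under the alternatives 3084 kept their direction and size, 154 moved and 20 reversed, and of 174 list medians 155 held, 17 moved and 2 reversed; the causes were not tested. With classes cut by marker UMIs the share ratio of Treg-like cells was 1.026, a reversal, and that of the Penk CD4 cluster 1.064. With the highest doublet scores removed the share ratio of migratory DC-like cells reversed to 1.144, their MHC class II median to 0.316, and single genes to 1.05 (Cd74), 1.28 (Ciita), 1.21 (H2-Aa), 1.44 (H2-Ab1), 1.15 (H2-Eb1), 1.08 (H2-Oa), 1.88 (H2-Ob), 1.07 (Mcm2, and 1.495 thinned), 1.35 (Mcm7), 1.11 (Stmn1) and 1.14 (Tyms).

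Taking non-B clusters whatever their Cd79a UMIs gave a share ratio of 0.627 for proliferating T-like cells and free B cell RNA in the intact library of 2.14% over all cells, 0.654% in naive CD4-like, 0.638% in naive CD8-like and 1.86% in Treg-like cells. Immunoglobulin constant genes alone gave 0.487% in intact naive CD4-like cells.

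The count of genes past the fold, in the order naive CD4-like, naive CD8-like, Treg-like, memory CD8-like, Penk CD4, Myb, NK-like and migratory DC-like, was 2707, 2672, 3015, 2899, 3244, 3241, 3843 and 3880 with no minimum beyond 1 UMI. It was 14, 10, 11, 15, 17, 18, 14 and 19 at 500 UMIs or more, and 12, 11, 13, 10, 30, 31, 32 and 61 at 2-fold. Scaling each cell to the same total gave 231 in Treg-like and 517 in migratory DC-like cells. Thinning gave 113 in the Penk CD4 cluster, 97 in the Myb cluster, 66 in NK-like and 66 in migratory DC-like cells.

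Thinning also reversed Zfp36 in naive CD8-like cells (1.01), Cd69 (1.01, and 1.05 with each cell scaled), Dapl1 (0.944) and Il4 (1.09) in the Penk CD4 cluster, Ccnb2 in NK-like cells (0.938) and Birc5 in migratory DC-like cells (1.88). Thinned, the Tfh median of the Penk CD4 cluster was -0.18. Without the cell with most UMIs of each library Il2 there was 1.36, and without cells holding 5 or more proliferation UMIs the cell cycle median of Treg-like cells was -0.0047, a step that removes cells by the list's own markers and says nothing of stability. The pDC-like cells were too few for gene ratios over all genes.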
